A study of Homo sapiens with 21 samples.

Results

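RNA from 3 libraries of OCI-AML5 cells exposed to UM171 for 24 h was compared directly with RNA from 3 libraries exposed for 6 h, so the comparison describes what happened to transcripts between these times in the drug rather than what UM171 did relative to vehicle. These 6 libraries were taken by their labels out of 21 in the series, and no DMSO library entered the comparison. OCI-AML5 is an established human acute myeloid leukemia line, and the labels name no genotype or edit for either group. The labels give DMEM with 10% FBS and 500 nM UM171 in both groups, whereas the paper names another medium and another dose. UM171 is a small molecule used to expand human hematopoietic stem cells in culture, and is known to make the ubiquitin ligase adaptor KBTBD4 target the LSD1-CoREST histone demethylase complex for degradation. The paper describes activation of both inflammatory and detoxification programs in this line, and the direct comparison asks which genes moved after the first hours of exposure.

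The 24 h libraries had also been in culture longer than the 6 h libraries, and the DMSO libraries carry a single time (72 h by their labels), so that time in the drug and time in culture cannot be told apart. Library totals were 25.9 to 37.6 M counts at 6 h and 24.3 to 51.5 M at 24 h. The share of counts from the 37 mitochondrial genes was 8.42 to 10.14% at 6 h and 7.73 to 7.81% at 24 h, so the groups did not overlap. The part of this share in the results below was not tested. Nothing in the labels says that the 3 libraries of a group came from separate cultures, and p-values then measure only the spread between these libraries, which may be technical. The myeloid identity of the line was visible in both groups. LYZ, which encodes lysozyme, had a mean of 945.3 TPM (transcripts per M) at 6 h and 1303.6 at 24 h. The summed TPM of 10 myeloid markers was 1674.9 to 1715.5 at 6 h and 1896.7 to 2047.0 at 24 h, and LYZ made up most of this sum. In the fit PTPRC, ANPEP, MPO and CEBPA were also higher at 24 h, whereas CD33, SPI1, CSF2RA and CD34 were lower and CSF2RB was level. Of these markers only CD34 met the limits for a call given below. TPM of ANPEP, MPO and CEBPA overlapped between the times, and ANPEP was at 0.71 TPM or less. Of 7 erythroid and platelet markers, 6 were at 0 in all 6 libraries.

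Changes between 6 h and 24 h were ranked among called genes above 3 log2 CPM (counts per M), leaving out clone and LINC identifiers. The largest rises were in an immunoglobulin heavy chain segment (IGHV1-3), MLLT11, the scavenger receptor CD36 and the glycosyltransferase gene UGT3A2. The largest falls were in the glycolytic aldolase ALDOC, the heme oxygenase HMOX1 and the granule protein BPI. Of 15766 genes tested, 599 were raised and 1040 were lowered, where a call needed more than a 2-fold change and an adjusted p under 0.0001 (edgeR quasi-likelihood test on rounded expected counts, Benjamini-Hochberg adjustment, n = 3 against 3). These are 3.80% and 6.60% of the genes tested, and 10.4% together. At an adjusted p under 0.05 without a minimum change, 35.8% of genes were higher and 36.3% lower at 24 h, and in 69.0% of genes the TPM of the 3 libraries of one time did not overlap with those of the other.

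The balance of rises and falls depended on the scaling. TMM scaling put the median log2 fold change of all genes at -0.02, and 36.5% of the called genes were raised. When libraries were scaled to their total count, the median was -0.18, 390 genes were raised and 1407 lowered, and the share raised was 21.7%. Upper quartile scaling gave a median of -0.15, with 415 raised and 1350 lowered, a share of 23.5%. Log2 fold changes below come from the TMM-scaled counts, whereas TPM values are the authors' and were scaled another way, so a ratio of TPM values need not equal the fitted change. The lowered genes were less abundant, with a median of 1.54 log2 CPM against 3.92 for the raised genes and 4.37 for all tested genes. In GENCODE annotation, 89.6% of the raised genes were protein coding and 6.34% were lncRNAs, whereas 69.7% of the lowered genes were protein coding and 19.7% were lncRNAs. Over all tested genes these shares were 80.5% and 11.6%. Changes over 4-fold were seen for 134 raised and 315 lowered genes. Where a gene list below had no member called in a direction by edgeR, DESeq2 and limma on log2(TPM + 1) also called none there, with 1 exception. In the lysosome list edgeR lowered 0 genes and limma lowered 1.

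**Figure D1:**
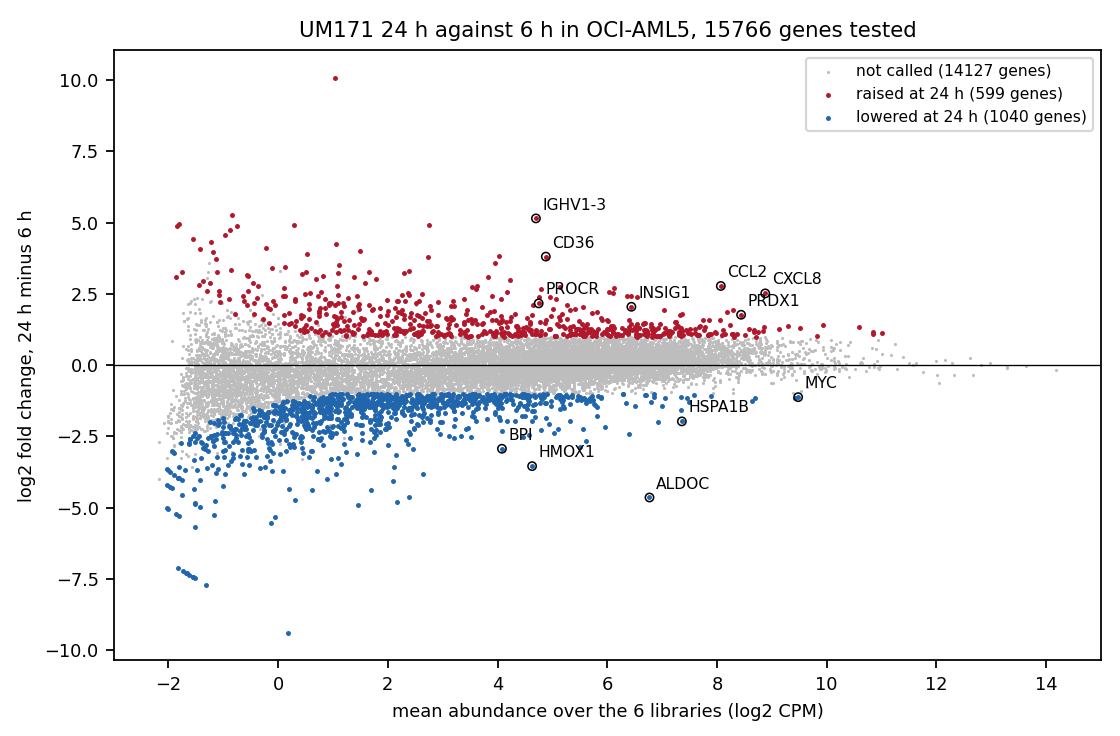
Each point is one of 15766 genes, with its mean abundance over the 6 libraries (log2 CPM) on the horizontal axis and its log2 fold change (24 h minus 6 h) on the vertical axis. The 599 raised genes are red, the 1040 lowered genes are blue, and some of the genes named in the text are circled and labeled. The lowered genes lie further to the left, at lower abundance, than the raised genes.

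The paper's examples for this line were the cytokine IL1B, the costimulatory ligand CD86, the protein C receptor PROCR and the superoxide dismutase SOD1. TPM of PROCR, which encodes the surface receptor EPCR, was 10.3, 13.3 and 11.9 in the 6 h libraries and 48.5 in each of the 24 h libraries (log2 fold change 2.17, SE 0.07, adjusted p = 3.0e-11). IL1B, which encodes the inflammatory cytokine interleukin-1 beta, had 10.7, 11.9 and 12.6 TPM at 6 h and 33.0, 31.5 and 39.8 TPM at 24 h (1.77, SE 0.08, adjusted p = 8.1e-10). SOD1, the cytosolic enzyme that converts superoxide to hydrogen peroxide, had 149.1, 153.9 and 150.0 TPM at 6 h and 349.9, 341.0 and 326.8 TPM at 24 h (1.30, SE 0.04, adjusted p = 2.6e-11). In all 3 genes every 24 h library was above every 6 h library. CD86, a ligand of the T-cell receptor CD28, was at 3.94, 4.38 and 4.86 TPM at 6 h and 7.13, 9.44 and 8.88 TPM at 24 h, a 1.98-fold difference (SE 0.08 on the log2 scale, adjusted p = 2.1e-07) that fell short of the 2-fold limit, although the libraries did not overlap.

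The 15 largest rises were taken among genes with more than 3 log2 CPM, clone and LINC identifiers aside. They included several genes with defined roles in myeloid cells and in signaling. TPM of IGHV1-3, a variable segment of the immunoglobulin heavy chain locus (GRCh38 chr14:106005095-106005574, minus strand), was 9.36, 6.12 and 5.06 at 6 h and 243.3, 204.0 and 249.3 at 24 h. This was the steepest rise of the 15, 35.5-fold (adjusted p = 1.3e-11), and counts of such segments can be split with similar segments of the same locus. CD36, which takes up oxidized lipoproteins and fatty acids, had 3.65, 3.12 and 3.4 TPM at 6 h and 37.2, 32.6 and 41.4 TPM at 24 h, a 14-fold rise (adjusted p = 1.1e-11). MLLT11, a small protein first found as a fusion partner in leukemia, was under 1 TPM in every 6 h library and between 9.99 and 10.6 TPM at 24 h (14.2-fold, adjusted p = 2.8e-12).

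Chemoattractant and cytokine genes formed part of the same set. CCL2, which attracts monocytes, had 161.2, 162.2 and 154.8 TPM at 6 h and 892.6, 809.8 and 1314.8 TPM at 24 h (6.88-fold, adjusted p = 1.5e-09). Replicate 3 at 24 h, the 24 h library with the fewest counts (24.3 M), had the highest TPM in all of the 15 except MLLT11, UGT3A2 and TNFSF13B. The reason was not tested. All 24 h libraries were above all 6 h libraries in each of the 15, which the choice of these genes required. C3AR1, the receptor of complement fragment C3a, rose 6.79-fold, and TNFSF13B, which encodes the B-cell survival factor BAFF, rose 6.0-fold from 12.5 to 13.6 TPM at 6 h to 65.3 to 69.1 TPM at 24 h. CCL3L3 is nearly identical to other genes of its cluster, and its 6.69-fold rise is uncertain for that reason. NAB2, a corepressor that binds EGR proteins, and ETV5, an ETS transcription factor, rose 6.33-fold and 6.42-fold. The remaining rises were UGT3A2, KRT9, CYTIP, BCYRN1 and RAB43, of which BCYRN1 belongs to a repeat family with many similar copies. RAB43, which shares exons with a read-through transcript, had the widest error of the 15 (log2 fold change 3.08, SE 0.34, adjusted p = 3.1e-06), with only 18 counts in the third 6 h library against 158 and 123 in the other two, and limma on log2(TPM + 1) no longer called it (adjusted p = 6.9e-04).

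ALDOC led the falls. Its TPM was 216.3, 227.8 and 238.4 at 6 h and 8.01, 6.36 and 12.3 at 24 h, which was 24.9-fold lower (adjusted p = 1.1e-11). HMOX1, which breaks heme down to biliverdin, iron and carbon monoxide, had 37.5, 42.7 and 42.9 TPM at 6 h and 2.88, 3.55 and 3.15 TPM at 24 h (11.6-fold lower, adjusted p = 2.8e-12). The spread within each time was small beside both falls. Among the other falls BPI, a neutrophil granule protein that binds bacterial endotoxin, was 7.65-fold lower at 24 h, MPEG1, the macrophage pore-forming protein perforin-2, was 5.28-fold lower, and TPM of CR1, a complement receptor, was 17.3 to 17.7 at 6 h and 3.37 to 3.46 at 24 h. OLR1, a scavenger receptor, and GPNMB, a glycoprotein of macrophages, were 4.79-fold and 4.67-fold lower. The remaining falls were in ACSM3, a mitochondrial acyl-CoA synthetase, TIFAB, an inhibitor of signaling through TRAF6, and in RGL4, AGRN, M1AP, ZMAT1, MUC19 and MYO15B, with changes between 4.73-fold and 7.26-fold.

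**Figure D2:**
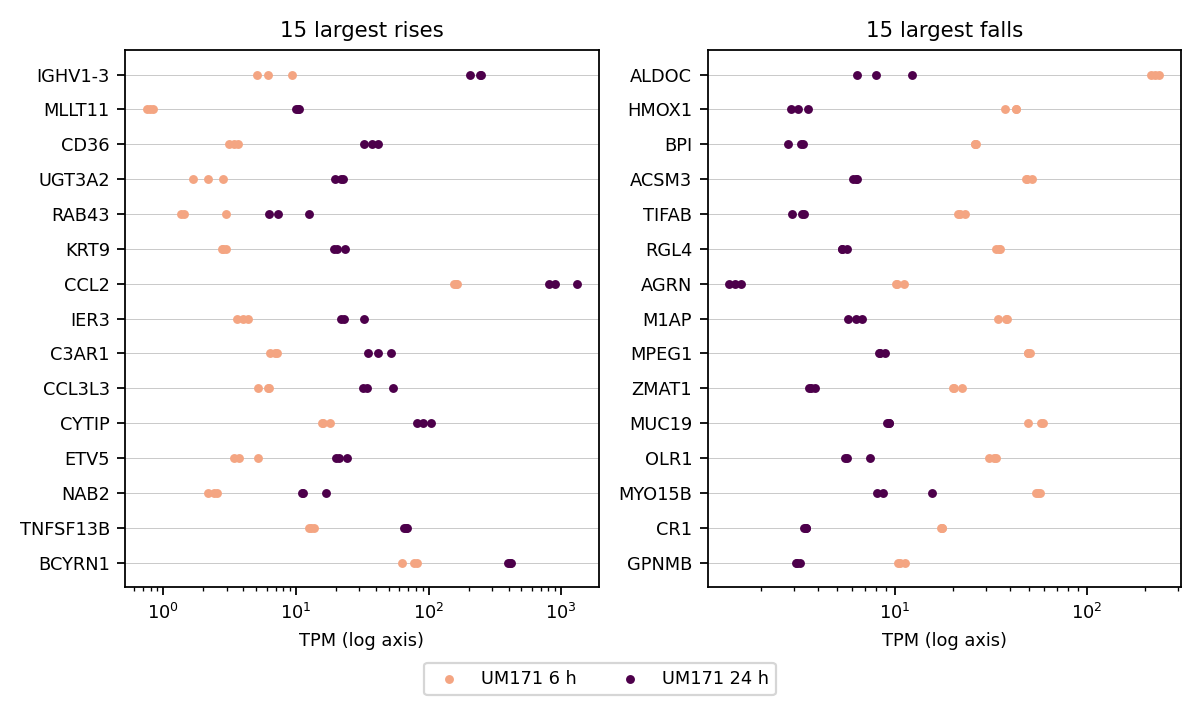
TPM on a log axis for the 15 largest rises (left) and the 15 largest falls (right) among called genes above 3 log2 CPM, with 1 point for each of the 3 libraries at 6 h (orange) and at 24 h (purple). The libraries of both times form separate groups in each gene because this was a condition of the choice. RAB43 has the widest spread among the rises. Genes without a symbol or with a clone or LINC identifier were left out.

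In the TMM-scaled edgeR fit proteasome genes were the list with the highest share of raised members (53.8%). The proteasome degrades ubiquitin-tagged proteins in a barrel-shaped core made of PSMA and PSMB subunits, to which a regulatory cap of PSMC ATPases and PSMD subunits delivers them. Of 39 subunits tested, 21 were raised and none lowered (1 was lower at an unadjusted p under 0.05), with a median log2 fold change of 1.08 beside -0.02 for all genes. At the looser limit of an adjusted p under 0.05 the count was 36 higher and 1 lower. Total count scaling raised 13 of them, with a median of 0.91, and limma on log2(TPM + 1) raised 12. In both of these the short lymphoid list had a higher share, with 4 and 3 of 8 genes raised. The core subunit PSMB2 had 79.6, 73.0 and 81.5 TPM at 6 h and 200.1, 219.3 and 221.0 TPM at 24 h (log2 fold change 1.6, SE 0.04, adjusted p = 5.1e-12). The cap scaffold PSMD1 rose by 1.58, the core subunit PSMB6 by 1.43 and the ATPase PSMC3 by 1.39 on the same scale, and none overlapped between the times. Subunits of the immunoproteasome, the form that cells make in response to interferon, had other values. PSMB8 differed by 0.70, PSMB9 by 0.04 and PSMB10 by -0.08, and the activator subunit PSME1 by -0.18. None of these was called.

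Of the 34 proteasome genes with a promoter in the RefSeq table (GRCh38.p14, 250 bases before to 50 after the start), 9 (26.5%) held the antioxidant response element letters TGACNNNGC on either strand, the core bound by the NRF1 and NRF2 factors, against 15.3% of 11045 tested genes. The share was higher in lists without a raised member, at 11 of 30 lysosome promoters (36.7%) and 5 of 6 neutrophil granule promoters (83.3%), and was 18.2% of 33 redox defense promoters. Over all genes with a promoter, 16.8% of raised and 14.3% of lowered ones held the letters. The match in the PSMB3 promoter is shown because this subunit was raised (log2 fold change 1.27, SE 0.04, adjusted p = 3.1e-11) with TPM of 121.2, 126.5 and 133.8 at 6 h and 273.9, 281.4 and 284.8 at 24 h. The stretch lies at chr17:38752611-38752670 on the plus strand, upstream of the start, and capitals mark the match. A match is a description of the letters only.
PSMB3: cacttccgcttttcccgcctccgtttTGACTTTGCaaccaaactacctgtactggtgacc

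**Figure D3:**
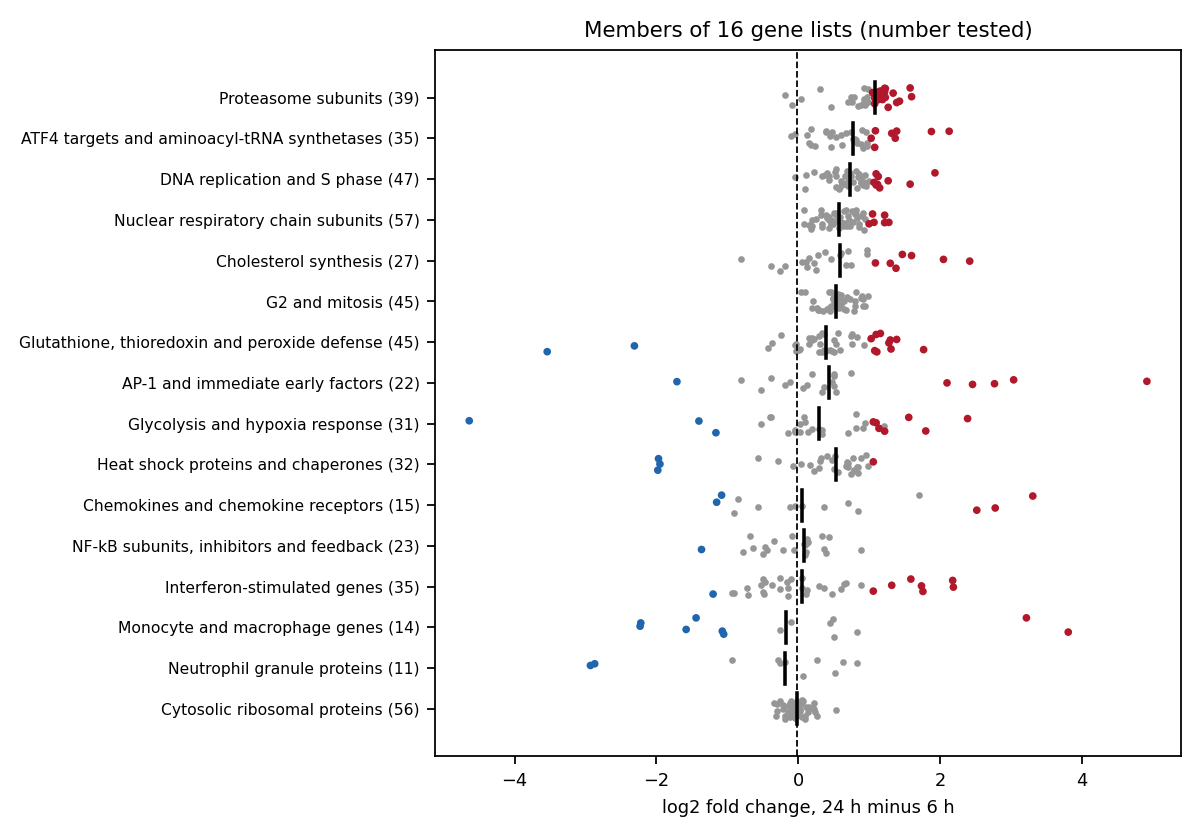
Log2 fold change (24 h minus 6 h) of each tested member of 16 gene lists, with called members in red (raised) or blue (lowered), other members in gray, a black bar at the list's median and a dashed line at the median of all genes (-0.02). The number tested is given after each name. Proteasome subunits have the highest median of the 16 lists shown (1.08), and cytosolic ribosomal proteins lie around -0.02. Some short lists that are not shown had higher medians, such as the lymphoid genes (1.30).

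Genes of redox defense moved in both directions. Glutathione and thioredoxin carry the electrons with which peroxiredoxins and other enzymes remove peroxides, and many of these genes are targets of NRF2. Of 45 tested, 10 were raised and 2 lowered, with a median of 0.39, and total count scaling left 5 raised. TPM of PRDX1, an abundant peroxiredoxin, was 286.1, 305.6 and 303.3 at 6 h and 864.1, 869.1 and 837.6 at 24 h (log2 fold change 1.77, SE 0.05, adjusted p = 1.3e-11). SLC7A11, the cystine importer that supplies glutathione synthesis, rose by 1.39, the glutaredoxin GLRX by 1.31 and SOD1 by 1.30 on this scale. Members that were lowered were HMOX1 (-3.54, SE 0.07) and the glutathione transferase GSTM2 (-2.31, SE 0.28), the latter at 1.19 TPM or less in every library. GSTM2 was no longer called without the second 24 h library (adjusted p = 1.1e-04) or the first 6 h library (1.3e-04). Other NRF2 targets had smaller differences in both directions. The quinone reductase NQO1 differed by 0.51 (SE 0.09), the thioredoxin reductase TXNRD1 by 0.36 (SE 0.04), and GCLM, a subunit of the enzyme that starts glutathione synthesis, by -0.42 (SE 0.06). Among 20 genes of heme and iron handling, none was raised (10 were higher at an unadjusted p under 0.05) and 2 were lowered, HMOX1 and the iron exporter SLC40A1 (log2 fold change -1.36, SE 0.08). The ferritin heavy chain FTH1 differed by -0.64 with 1287.2 to 1358.0 TPM at 6 h and 764.6 to 774.4 at 24 h, and was not called.

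Amino acid supply genes were higher at 24 h. ATF4 is a transcription factor made when amino acids are short or proteins misfold, and it switches on amino acid transport and synthesis and the enzymes that charge tRNAs. Of 35 such genes 8 were raised and none lowered (0 at an unadjusted p under 0.05), with a median of 0.78, and 33 were higher at an adjusted p under 0.05. Total count scaling raised 5. TPM of PSAT1, which acts in serine synthesis, was 80.4, 87.2 and 88.4 at 6 h and 196.4, 195.3 and 204.7 at 24 h (log2 fold change 1.37, SE 0.04, adjusted p = 1.1e-11). Groups were well separated. DDIT4, an inhibitor of the growth kinase mTORC1, rose by 2.13, and CHAC1, which degrades glutathione, by 1.88 on the same scale. ATF4 mRNA itself was 222.1, 223.2 and 233.6 TPM at 6 h and 422.8, 434.2 and 461.7 TPM at 24 h (1.08, SE 0.04, adjusted p = 9.3e-11). DDIT3, which encodes the stress factor CHOP, differed by -0.10 (SE 0.13, adjusted p = 0.52).

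Some cholesterol synthesis genes rose, among them INSIG1, MVK and MSMO1. When sterols in the endoplasmic reticulum fall, SREBP factors are released by SCAP and INSIG proteins and activate the enzymes of the pathway. Of 27 genes 7 were raised and none lowered (4 at an unadjusted p under 0.05), with a median of 0.59. Limma on log2(TPM + 1) raised 4 of them, and at the looser limit 20 were higher and 4 lower. INSIG1, which retains SREBP in the endoplasmic reticulum, had 27.6, 26.2 and 24.5 TPM at 6 h and 71.6, 63.5 and 76.2 TPM at 24 h (log2 fold change 2.05, SE 0.06, adjusted p = 1.8e-11). The lowest 24 h library was more than 2-fold above the highest 6 h library. The pathway enzymes MVK and MSMO1 rose by 1.6 and 1.47. Limma on log2(TPM + 1) did not call MVK (adjusted p = 6.0e-04). The enzyme SQLE differed by 0.97 (SE 0.04), short of the 2-fold limit. The mRNA of the factor SREBF2 differed by -0.18 (SE 0.04).

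The CCAAT box (letters CCAAT), bound by the factor NF-Y that works with SREBP and with cell cycle factors, was present in 36.6% of the 11045 promoters, 41.0% of the 458 raised genes with a promoter and 28.7% of the 637 lowered ones. It was found in 16 of 20 cholesterol synthesis promoters (80.0%), 22 of 41 DNA replication promoters (53.7%) and 16 of 34 proteasome promoters (47.1%). It was also frequent in lists without a raised member, with 28 of 38 G2 and mitosis promoters (73.7%) and 9 of 12 MHC class II promoters (75.0%). MSMO1 and RRM2 are shown because both were raised and hold 4 and 3 copies upstream of the start. Both lie on the plus strand, MSMO1 at chr4:165327479-165327643 and RRM2 at chr2:10122604-10122688, and capitals mark CCAAT or its complement.
MSMO1: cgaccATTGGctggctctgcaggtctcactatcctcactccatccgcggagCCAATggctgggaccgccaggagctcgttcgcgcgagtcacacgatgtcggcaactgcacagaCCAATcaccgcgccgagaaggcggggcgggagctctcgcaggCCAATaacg
RRM2: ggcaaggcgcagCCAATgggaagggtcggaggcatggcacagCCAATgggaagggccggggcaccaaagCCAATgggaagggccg

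Genes of DNA replication were higher at 24 h by modest amounts. Of 47, 9 were raised and none lowered (0 at an unadjusted p under 0.05, median 0.73), and 45 were higher at an adjusted p under 0.05. Total count scaling raised 3. RRM2, a subunit of the reductase that makes deoxyribonucleotides, had 89.5, 100.3 and 94.4 TPM at 6 h and 315.3, 323.7 and 324.3 TPM at 24 h (log2 fold change 1.93, SE 0.04, adjusted p = 2.4e-12). CCNE1, the cyclin that drives entry into S phase, rose by 1.58 and the DNA polymerase subunit POLA1 by 1.27. The replication clamp PCNA differed by 0.38 (SE 0.05) and was not called. Of 45 genes of G2 and mitosis, 0 were called by edgeR, DESeq2 or limma, although 43 were higher at an adjusted p under 0.05 and 43 at an unadjusted p under 0.05, with a median of 0.54. Of 57 nuclear-encoded respiratory chain subunits 6 were raised (3 with total count scaling), none was lowered (0 at an unadjusted p under 0.05) and 55 were higher at the looser limit (median 0.58). ATP5MC1, a subunit of the ATP synthase rotor, rose by 1.28. In the 13 genes encoded by mitochondrial DNA edgeR, DESeq2 and limma each called 0, with 2 higher and 4 lower at an unadjusted p under 0.05 and a median of 0.00.

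Ribosomal proteins were a list with little movement. Of 56 genes edgeR, DESeq2 and limma each called 0, with 12 higher and 21 lower at an unadjusted p under 0.05, a median of -0.02 (-0.19 with total count scaling) and a range from -0.34 to 0.54. Among 47 genes of MYC and ribosome biogenesis only MYC was called. MYC, the growth-promoting transcription factor, had 755.8, 737.3 and 725.4 TPM at 6 h and 302.5, 300.8 and 311.1 TPM at 24 h (log2 fold change -1.12, SE 0.04, adjusted p = 8.4e-11). The libraries of each time lay within a narrow range and far apart from the other time.

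Among glycolytic genes ALDOC fell and the transporter SLC2A3 rose. Of 31 glycolysis and hypoxia genes, 7 were raised and 3 lowered (median 0.30), and total count scaling left 4 raised. SLC2A3, which encodes the glucose transporter GLUT3, had 13.6, 16.2 and 11.8 TPM at 6 h and 58.8, 62.8 and 88.0 TPM at 24 h (log2 fold change 2.39, SE 0.12, adjusted p = 1.5e-09). The phosphofructokinase PFKM, the mitophagy receptor BNIP3 and the pyruvate dehydrogenase kinase PDK1 rose by 1.8, 1.56 and 1.22. Limma on log2(TPM + 1) called neither BNIP3 nor PDK1 (adjusted p = 2.3e-04 for each). Beside ALDOC, the enzyme GPI, which interconverts hexose phosphates, was lowered, with 819.0 to 827.2 TPM at 6 h and 302.0 to 341.1 TPM at 24 h (-1.16, SE 0.04, adjusted p = 9.3e-11). The vasodilator peptide gene ADM fell by 1.40. The glucose transporter SLC2A1 differed by 0.08 (SE 0.06) and the kinase PGK1 by 0.03 (SE 0.05).

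Immediate early factors rose in a subset. These are transcription factors switched on within minutes by growth factor, stress and cytokine signals, without new protein synthesis. Of 22 tested 5 were raised and 1 lowered, with a median of 0.43. TPM of EGR1, a zinc finger factor of this class, was 7.57, 6.85 and 7.37 at 6 h and 24.9, 25 and 36.3 at 24 h (log2 fold change 2.10, SE 0.13, adjusted p = 9.0e-09). Its relative EGR2 rose by 2.46, from 24, 19 and 18 counts at 6 h to 131, 170 and 84 counts at 24 h. EGR3, with 5, 2 and 0 counts at 6 h and 95, 67 and 78 at 24 h, was also raised (4.92, SE 0.53, adjusted p = 2.2e-06), as were MAFF and IER3, a regulator of cell survival (2.77, SE 0.15). The fitted size for EGR3 rests on these few 6 h counts. KLF2, a factor of resting leukocytes and endothelium, fell by 1.71. The AP-1 subunits FOS and JUN differed by 0.50 (SE 0.06) and -0.52 (SE 0.05) and were not called. In the list of cytokine and ERK feedback genes 2 of 23 were raised, the ERK phosphatase DUSP6 (1.29, SE 0.04) and the ERK pathway inhibitor SPRY4, which had 6, 6 and 2 counts at 6 h and 60, 62 and 48 counts at 24 h, and 1 was lowered, the cytokine receptor inhibitor CISH (-1.0, SE 0.04), which lay at the 2-fold limit and of the fits with 1 library left out was called only without the third 24 h or the first 6 h library. DESeq2, RLE size factors in edgeR and the fit with no count filter did not call CISH (-0.99, -0.99 and -0.98).

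Neither the NF-kB subunits nor their inhibitors were called. NF-kB is held in the cytoplasm by IkB proteins and, once released, switches on cytokines and chemokines together with its own inhibitors. Of 23 NF-kB subunits, inhibitors and feedback genes 0 were raised by edgeR, DESeq2 or limma (7 were higher at an unadjusted p under 0.05), and BIRC3, an inhibitor of apoptosis, fell by 1.37 (SE 0.19, adjusted p = 2.4e-05). The BIRC3 call was lost without the first or second 24 h library or 6 h replicates 2 or 3 (adjusted p = 1.3e-04 to 2.7e-04). The inhibitor NFKBIA differed by 0.44 (SE 0.05), the deubiquitinase TNFAIP3 by -0.78 (SE 0.09) and the subunit RELA by -0.21 (SE 0.05). The list's median was 0.08 with TMM and -0.08 with total count scaling.

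Of 15 chemokines and chemokine receptors tested, 3 were raised and 2 lowered. CXCL8, which attracts neutrophils, had 148.7, 155.5 and 154.2 TPM at 6 h and 712.9, 653.7 and 824.6 TPM at 24 h (log2 fold change 2.52, SE 0.07, adjusted p = 1.1e-11). The other raised ligands were CCL2 (2.78, SE 0.14) and CCL3 (3.31, SE 0.26), the latter at 1.65 to 2.23 TPM at 6 h and 14.2 to 27.6 TPM at 24 h. The CCL3 rise carries the limit given for CCL3L3, since reads can be split within this cluster. All ligands called were raised and both receptors called were lowered. CCR2, the receptor of CCL2, had 52.5, 59.8 and 59.5 TPM at 6 h and 24.6, 23.5 and 21.1 TPM at 24 h (-1.15, SE 0.06, adjusted p = 2.3e-09), and CXCR4, which retains cells in the marrow, fell by 1.08. Of 12 promoters of this list, 6 held the NF-kB letters GGNNTTTCC on either strand (50%) against 6.74% of all 11045. These were CCL20, CXCL1, CXCL2, CXCL3, CXCL8 and CXCR4, of which only CXCL8 was raised and CXCR4 was lowered. The promoter of the raised CCL3 held no match. In the list of NF-kB subunits, inhibitors and feedback genes, which had no raised member, 8 of 20 (40.0%) held these letters. Over all genes with a promoter, 8.3% of raised and 7.38% of lowered ones held them. The CXCL8 promoter is shown because this gene was raised and holds, upstream of the start, a match to these letters and a match to the AP-1 letters TGANTCA, both in capitals. The stretch lies at chr4:73740419-73740508 on the plus strand.
CXCL8: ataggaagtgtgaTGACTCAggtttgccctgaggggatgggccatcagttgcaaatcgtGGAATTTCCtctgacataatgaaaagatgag

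In the IL-1 family and inflammasome list, 2 of 13 were raised, IL1B and the receptor subunit IL1RAP, which rose by 1.06 (SE 0.04) and by 0.90 with total count scaling, under the 2-fold limit. The sensor NLRP3 differed by 0.08 and the receptor antagonist IL1RN by -0.09. TNF was below the filter, with at most 0.02 TPM in any of the 6 libraries. Of 14 genes of eicosanoid synthesis and receptors, 4 were raised and none lowered (5 were lower at an unadjusted p under 0.05), with 8 higher and 5 lower at the looser limit. PLA2G4A, which releases arachidonic acid, had 13.8, 13.6 and 14.8 TPM at 6 h and 32.6, 29.8 and 29.8 TPM at 24 h (1.27, SE 0.05, adjusted p = 1.0e-10). The cyclooxygenase PTGS2 rose by 1.61, ALOX5AP, which presents arachidonic acid to 5-lipoxygenase, by 1.72, and the thromboxane synthase TBXAS1 by 3.50, from 14, 13 and 5 counts at 6 h to 158, 172 and 87 counts at 24 h. ALOX5AP was no longer called without the second 24 h library (adjusted p = 1.6e-04), the first 6 h library (2.0e-04) or the second (1.3e-04). Limma on log2(TPM + 1) called neither PTGS2 nor ALOX5AP (adjusted p = 2.6e-04 and 4.1e-04).

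Interferon-stimulated genes were mixed. These genes are switched on by interferon signaling through a response element in their promoters. Of 35 tested 7 were raised and 1 lowered, against backgrounds of 3.80% and 6.60%, and the median was 0.05 (-0.12 with total count scaling), so no direction is given for the list. Without the first 6 h library 4 were raised. TPM of BST2, a surface protein that tethers enveloped viruses, was 65.9, 64.7 and 61.9 at 6 h and 141.5, 147.8 and 147.3 at 24 h (log2 fold change 1.32, SE 0.05, adjusted p = 9.0e-11). IFI44 and IFI44L rose by 2.19 and 2.18, but neither exceeded 3 TPM in any of the 6 libraries. OAS1 rose by 1.76. Neither OAS1 nor IFI44L was called without the second 24 h library (adjusted p = 1.5e-04 and 1.2e-04) or without the first 6 h library (2.4e-04 and 1.7e-04) or the second (1.4e-04 and 1.0e-04). Limma on log2(TPM + 1) raised 1 and lowered 2 of the list, and did not call IFIT1 (adjusted p = 2.6e-04). XAF1, an apoptosis-promoting gene of the list, fell by 1.2. ISG15 differed by 0.36 (SE 0.12) and MX1 by 0.12 (SE 0.27). Of 26 promoters of the list, 17 (65.4%) held the response element letters GAAANNGAA on either strand, against 6.83% of all, and so did 6 of 12 MHC class I promoters (50%), a list with no member called. Over all genes with a promoter, 7.64% of raised and 7.54% of lowered ones held these letters. The IFIT1 promoter, chosen because IFIT1 was raised by 1.59 (SE 0.17) and holds the letters 2 times upstream of the start, lies at chr10:89392493-89392542 on the plus strand, and capitals mark both matches.
IFIT1: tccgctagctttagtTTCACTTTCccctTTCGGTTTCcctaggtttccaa

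Genes of mature monocytes and neutrophils moved in both directions. Of 14 monocyte and macrophage genes tested 6 were lowered (42.9%) and 2 raised (14.3%), against 6.60% and 3.80% of all genes. At the looser limit 5 were higher and 7 lower. Of 11 neutrophil granule genes 2 were lowered (18.2%) and none raised. DESeq2 and limma also raised 0 of them, and 4 were higher at an unadjusted p under 0.05. At the looser limit 4 granule genes were higher and 6 lower. LILRB4, an inhibitory receptor of monocytes, had 206.0, 211.4 and 212.8 TPM at 6 h and 64.1, 69.4 and 73.9 TPM at 24 h (log2 fold change -1.58, SE 0.04, adjusted p = 1.1e-11). The scavenger receptor MARCO fell by 2.23 and the lectin FCN1 by 1.44. The raised members were CD36 and SPP1, which encodes osteopontin, from 18, 14 and 6 counts at 6 h to 144, 172 and 88 counts at 24 h. AZU1, a granule serine protease homolog, fell by 2.87, with 81, 69 and 63 counts at 6 h and 10, 16 and 7 at 24 h. The stem and progenitor marker CD34 had 9.11, 10.1 and 9.55 TPM at 6 h and 2.54, 2.84 and 2.21 TPM at 24 h (-1.79, SE 0.08, adjusted p = 6.4e-10). Both groups of libraries were tight in CD34.

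Genes of other blood lineages also moved. GATA2, a factor of stem cells and mast cells, had 34.8, 33.4 and 31.4 TPM at 6 h and 107.8, 100.3 and 146.3 TPM at 24 h (log2 fold change 1.94, SE 0.11, adjusted p = 4.3e-09), and MITF, which works with it in mast cells, rose by 1.52. The histamine synthesis gene HDC had 2, 4 and 2 counts at 6 h and 26, 22 and 21 counts at 24 h, and of the fits with 1 library left out only that without the second 24 h library called it (adjusted p up to 0.0014 in the others). The HDC call was also lost with total count or upper quartile scaling, limma, a replicate block and the fits of 12 or 15 libraries. Of 9 mast cell, basophil and eosinophil genes tested, 3 were raised and 1 lowered. DESeq2 raised 5, total count scaling raised 2 and limma on log2(TPM + 1) raised 1. Of 8 lymphoid genes tested 4 were raised and none lowered (0 at an unadjusted p under 0.05), namely IL7R (1.92, SE 0.05), CD79A (1.90, SE 0.08), TRAC (1.24, SE 0.14, at the limit without the first 6 h library) and CD3D, from 9, 4 and 11 counts to 88, 110 and 56 counts. The summed TPM of 6 lymphoid markers was 30.3 to 34.7 at 6 h and 58.8 to 70.0 at 24 h. Among the defining markers MS4A1, which encodes CD20, was at 0 in all 6 libraries, and the mean of CD3E was 0.01 TPM at both times. The summed TPM of 8 epithelial, stromal and endothelial markers was at most 1.03, and the raised COL1A2 in this class was at 0.51 TPM or less.

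Coagulation genes around the protein C receptor changed in both directions. On endothelium, EPCR presents protein C to thrombin bound to thrombomodulin, which converts it into an anticoagulant enzyme. Of 15 genes tested 5 were raised and 1 lowered, with a median of 0.46. Beside PROCR, tissue factor (F3), the cell surface starter of clotting, had 1.58, 1.54 and 1.26 TPM at 6 h and 5.25, 5.47 and 9.96 TPM at 24 h (log2 fold change 2.48, SE 0.20, adjusted p = 1.5e-07). Coagulation factor F5 rose by 2.09 and the transglutaminase subunit F13A1 by 1.65. Limma on log2(TPM + 1) raised 3 of the list and called neither F3 nor F13A1 (adjusted p = 2.2e-04 and 2.8e-04). THBD, which encodes thrombomodulin, had 8.43, 9.17 and 9.08 TPM at 6 h and 3.98, 3.96 and 3.48 TPM at 24 h (-1.07, SE 0.06, adjusted p = 8.7e-09). PROCR and THBD thus moved in opposite directions in non-overlapping libraries.

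Among heat shock genes the inducible HSP70 genes fell. Of 32 chaperone genes 3 were lowered (9.38%) and 1 raised (3.12%), shares near the 6.60% and 3.80% of all genes, whereas at the looser limit 25 were higher and 5 lower, with a median of 0.54. HSPA1B, an inducible HSP70, had 161.5, 167.6 and 163.8 TPM at 6 h and 39.0, 37.8 and 37.8 TPM at 24 h (log2 fold change -1.97, SE 0.04, adjusted p = 1.3e-12). Its near-identical copy HSPA1A fell by 1.98, and since reads of this pair can be split between them the pair is best read together. HSPA6, another inducible member, fell by 1.95. The HSP10 gene HSPE1 rose by 1.06, and was not called with total count scaling, which raised 0 of the list. The cytosolic HSP90AA1 differed by 0.75 (SE 0.05), and DNAJB1, a partner of HSP70, by -0.56 (SE 0.04). The heat shock element letters GAANNTTC were present in 7 of 30 promoters of this list (23.3%) against 4.74% of all. Over all genes with a promoter, 6.55% of raised and 5.49% of lowered ones held these letters. The HSPA1A match is shown for the pair that fell, at chr6:31815413-31815472 on the plus strand, upstream of the start, with the match in capitals.
HSPA1A: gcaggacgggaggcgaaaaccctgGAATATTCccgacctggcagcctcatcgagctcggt

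The aryl hydrocarbon receptor gene AHR and its target CYP1A1 also rose. This receptor is a ligand-activated factor that induces cytochrome P450 enzymes and its own repressors. AHR mRNA was 23.3, 28.9 and 27.0 TPM at 6 h and 74.1, 79.5 and 67.3 TPM at 24 h (log2 fold change 1.8, SE 0.05, adjusted p = 1.5e-11). CYP1A1, its most inducible target, had 0.78, 0.72 and 0.5 TPM at 6 h and 8.58, 7.53 and 6.38 TPM at 24 h, a 14-fold rise (adjusted p = 4.1e-11). Of 10 genes of the pathway tested 4 were raised, the others being CYP1B1 (1.08, SE 0.07) and TIPARP (1.18, SE 0.04), and 1 was lowered, with 6 higher and 3 lower at the looser limit. The genes of the complex that UM171 acts on differed little at the mRNA level. Of 17 LSD1-CoREST genes none was raised by edgeR, DESeq2 or limma (12 were higher at an unadjusted p under 0.05), and only RCOR2 was lowered, from 42 to 60 counts at 6 h to 10 to 26 counts at 24 h. RCOR2 was not called without the first 24 h, the first 6 h or the third 6 h library (adjusted p = 1.2e-04 to 1.9e-04). KDM1A, which encodes LSD1, differed by 0.47 (SE 0.03), RCOR1 by 0.15 (SE 0.03) and KBTBD4 by -0.08 (SE 0.05).

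The values at 48 h, at 72 h and in DMSO place both times in a longer course, and are given without a test. The third 48 h library had the highest mitochondrial share of these 15 libraries, 13.47%. Means are listed below in the order DMSO, 6, 24, 48 and 72 h. Some genes were highest at 24 h. TPM of PSMB2 averaged 81.0, 78.1, 213.5, 161.4 and 80.2 over this course, and the median of the 39 proteasome genes was 121.2, 117.7, 198.6, 161.4 and 105.9. The peroxiredoxin PRDX1 averaged 276.8, 298.3, 856.9, 626.6 and 312.1 TPM. At 72 h the means of PSMB2 and PRDX1 were close to those at 6 h. CYP1A1 was higher in each 24 h library than its means of 0.813 TPM at 48 h and 1.08 TPM at 72 h. The median of the 47 replication genes was 39.5, 39.7, 51.3, 41.9 and 26.9 TPM.

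Other genes were higher still at 48 h or 72 h. CXCL8 averaged 191.4, 152.8, 730.4, 1663.3 and 1272.2 TPM, and CCL2 averaged 88.5, 159.4, 1005.7, 2162.3 and 1339.9 TPM. INSIG1 averaged 70.5, 26.1, 70.4, 203.3 and 225.8 TPM, with its lowest level at 6 h, and the median of the 27 cholesterol genes was 37.0, 28.4, 48.0, 73.2 and 78.9. PSAT1 averaged 59.2, 85.3, 198.8, 223.0 and 447.0 TPM, with its highest level at 72 h.

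Among the falls, HMOX1 stayed low after 24 h, with 49.2, 41.1, 3.19, 6.36 and 4.23 TPM. ALDOC had 195.7, 227.5, 8.9, 40.8 and 98.3 TPM, so that its level at 72 h was below that at 6 h and above that at 24 h. CR1 had 13, 17.5, 3.43, 16.8 and 62.7 TPM, lowest at 24 h and highest at 72 h. PROCR, with 3.68, 11.8, 48.5, 41.1 and 29.7 TPM, was highest at 24 h.

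**Figure D4:**
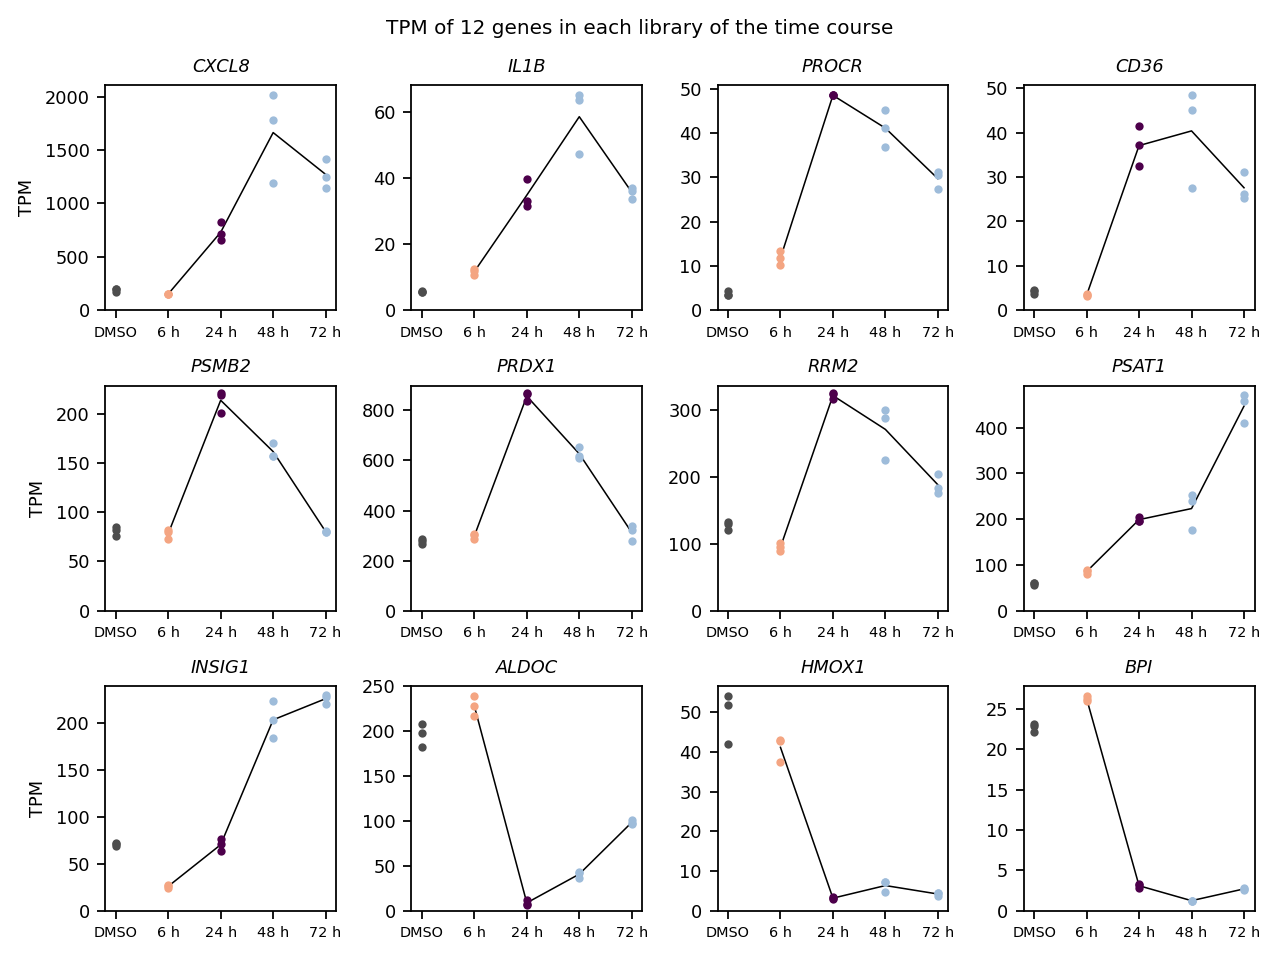
TPM (vertical axis, from 0) of 12 genes in each of the 3 DMSO libraries (dark gray, 72 h by their labels) and the 3 libraries at 6 h (orange), 24 h (purple), 48 h and 72 h (blue) of UM171, with lines through the UM171 means. PSMB2, PRDX1 and RRM2 are highest at 24 h, CXCL8 and INSIG1 are higher still at 48 h, and HMOX1 and BPI stay low from 24 h.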

How the data were processed

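RNA was sequenced from stranded poly(A) libraries of OCI-AML5 cells. Per the labels, CASAVA 1.8.2, Trimmomatic 0.35, STAR 2.5.1b and RSEM 1.2.28 with GRCh38 are named by the submitters' processing notes, whereas the paper's methods name other tools. The authors deposited RSEM's expected count per gene, in which shared reads are split, and TPM, scaled for length and library. Counts on 45 Y pseudoautosomal entries were added to their X counterparts, which left 58174 identifiers. Floors of 3 counts cover counting error only.

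Expected counts of the 6 libraries were rounded and tested with edgeR 4.0.16 (R 4.3.3, filterByExpr, TMM, quasi-likelihood F test, Benjamini-Hochberg adjustment over all tested genes), with limits of adjusted p under 0.0001 and a 2-fold change. The SE is the absolute log2 fold change over the square root of F. DESeq2 1.42.0 and limma 3.58.1 on log2(TPM + 1) were alternatives. In simulated data on 15766 genes edgeR recovered 180 of 200 changed genes (3- or 4-fold) with 0 false calls, DESeq2 169 and limma 159. No other gene was changed in the simulation, whereas 10.4% of genes were called in the data. It therefore cannot show how many calls in the data are false. Coordinates are from GENCODE for GRCh38, and promoters from RefSeq GRCh38.p14.

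The members and the 50 gene lists were chosen with earlier results of these data known. Named genes are the 15 largest rises and falls among called genes above 3 log2 CPM whose groups did not overlap, up to 4 called members per list and direction, 4 example genes of the paper, and cell type markers. Genes without a symbol or with a clone or LINC identifier were left out before the 15 were ranked. Non-called members, PSMB3, BST2, EGR1, IFIT1 and ATF4 were added after their values were seen, as were the heat shock element letters. Of 1338 list entries, 3 had no match. Libraries of sgEPCR cells were not used here. Some genes met by this rule are not reported here.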

Additional observations from a re-analysis of the deposited data

How the results depend on the processing

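Beside 599 raised and 1040 lowered genes (1639 in all), limma on log2(TPM + 1) gave 240 and 550 (790) and limma on log2(TPM + 0.1) gave 256 and 640 (896). Total count scaling raised 390. An adjusted p under 0.05 without a minimum change gave 11374 genes (5647 and 5727), the same limit with a 2-fold change gave 2506 (762 and 1744), and glmTreat, which tests against a 2-fold change, gave 373 (184 and 189). Leaving out each library gave 1283 to 1487 genes. The counts from DESeq2, RLE and upper quartile scaling, other filters and fits of 12 or 15 libraries stayed within 1.5 times those above. None of the 207 called genes in the lists and examples changed direction under any alternative run that tested it. Non-called genes named in the text, other than CD86, were not checked for direction. Of 207 called genes in the lists and examples, 44 lost the call with total count scaling, 79 with limma on log2(TPM + 1) and 5 to 19 when a library was left out. The cause was not tested.

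Replicate numbers are shared between both times, but deviations of same-numbered libraries correlated at -0.06, 0.13 and -0.03, so the numbers were not taken to pair the samples, and not every library correlated best with its own number. A replicate block gave 1496 genes (564 raised and 932 lowered). Genes with few 6 h counts, such as EGR3, have sizes that depth limits.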
